A study of Mus musculus with 6 samples.

Results

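Laminins are the trimers that epithelial cells lay down in their basement membrane, each built from an α, a β and a γ chain, and integrins are the αβ pairs by which the cells grip them. In lung epithelium the laminin with α3 and β3 chains (Lama3 and Lamb3) anchors cells through integrins α3β1 and α6β4, while the α5β2γ1 laminin (Lama5, Lamb2 and Lamc1) is a broad component of alveolar basement membrane. The α6β4 integrin is the core of the hemidesmosome, and αvβ6, whose β subunit is Itgb6, binds and activates latent TGF-β in injured epithelium. The 9 genes described here are the laminin chain genes Lama3, Lamb3, Lama5, Lamb2 and Lamc1 and the integrin subunit genes Itga3, Itga6, Itgb4 and Itgb6, taken by symbol from the 23337 gene symbols counted in every library. All 9 passed the filter on low counts that left 12899 genes for testing.

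The mutant libraries came from SpC-CreER/Dlk1flox/ROSA-Tomato mice and the wild-type libraries from SpC-CreER/ROSA-Tomato mice, with 3 libraries in each group. Both groups carried the CreER recombinase under the surfactant protein C promoter, which marks alveolar type II (AT2) cells, and a Tomato reporter, so the floxed Dlk1 was the labelled difference. All mice had acute lung injury from Pseudomonas aeruginosa, and Tomato-positive cells were sorted 10 days after it. The labels also mention days of culture without settling whether these cells were cultured, they give no age, and they do not say that each library came from its own animal, so p-values measure the spread between libraries.

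The libraries held 22511461 to 30695994 counts. Dlk1 itself had 2, 0 and 0 counts in mutants 1, 2 and 3, against 2, 0 and 2 in wild types 1, 2 and 3, which is too few to check the labels. AT2 marker transcripts were abundant in every library, with the 10 listed genes summing to 153500 to 170400 CPM (counts-per-million) in mutants and 171600 to 197500 CPM in wild types, all 10 with a negative log2 fold change. Without mutant 1 the log2 fold changes of these AT2 markers ran from -0.325 to 0.032. Mutant 1 stood apart through markers of other cells, whose sums were above the mean of the remaining 5 libraries 50.1-fold for fibroblasts, 29.9-fold for leukocytes, 14.5-fold for club cells, 12.3-fold for mesothelium and 5.26-fold for endothelium. Wild type 2 differed in sex-linked transcripts, with Xist at 185 CPM against at most 2.93 CPM elsewhere. Results are therefore also given without mutant 1. These are bulk libraries, in which fewer cells of a type and less RNA per cell cannot be told apart.

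The transcripts of both laminin trimers were well represented. Levels of different genes are compared as TMM-normalised CPM per kilobase of exon, where TMM is the scaling between libraries and the exon length is that of the protein-coding transcripts in the GENCODE annotation. On this per-length scale Lamb3, the partner of Lama3, was the highest of the 9 genes, at 71.7 ± 14.7 in mutants and 76.8 ± 2.8 in wild types (n = 3 each, ± SD). Lamb2 followed at 47.6 ± 3.38 in mutants and 46.8 ± 1.90 in wild types. Both β chains thus stood above the α chain of either trimer.

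Next in order on the same per-length scale was Lama5, at 37.5 ± 3.16 in mutants and 33.6 ± 1.07 in wild types. Itga3, the α subunit that pairs with β1, was at 31.6 ± 2.86 in mutants and 28.3 ± 0.979 in wild types. Lamc1, the γ chain of most laminins, was at 22.6 ± 2.86 in mutants and 19.2 ± 1.18 in wild types. The means came in this order in both groups. The mutant ranges of Lama5 and Itga3 overlapped, at 33.8 to 39.6 and 28.5 to 34.1, while in wild types no neighbours among the 9 genes overlapped.

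The lower members were Itga6, at 10.5 ± 1.02 in mutants and 10.4 ± 1.59 in wild types per kilobase, and Lama3, at 9.50 ± 1.2 in mutants and 7.09 ± 0.678 in wild types. Lama3 has a long and a short coding transcript that start at different places, and the counts do not say which was made. With the short transcript's 5551 bases in place of the 10745 of all exons, Lama3 would be at 18.4 in mutants and 13.7 in wild types, so its place beside Itga6 depends on the isoform. Even by all exons, the mutant ranges of Itga6 and Lama3 overlapped, at 9.51 to 11.6 and 8.79 to 10.9. The Itga6 values use the 4361 bases of its coding transcripts, while all its annotated exons cover 9025. Itgb6 was at 2.10 ± 0.0507 in mutants and 1.99 ± 0.608 in wild types. Itgb4 was the lowest in both groups, at 0.788 ± 1.02 in mutants, where mutant 1 held most of it, and 0.267 ± 0.0729 in wild types.

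**Figure D1:**
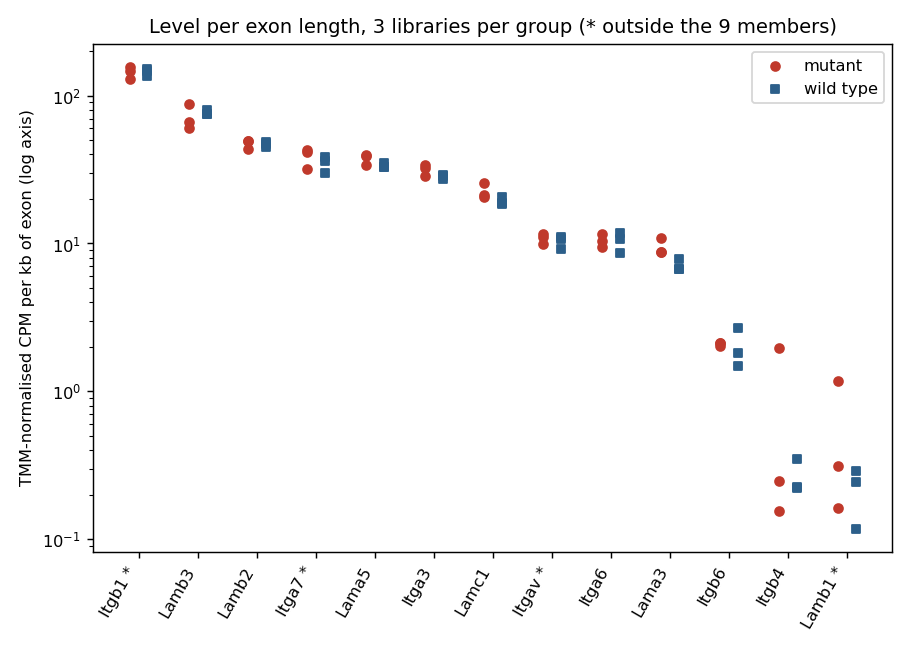
Level per kilobase of exon (TMM-normalised CPM, log axis) of the 9 laminin and integrin genes and of 4 related subunits marked with an asterisk, in the 3 mutant (circles) and 3 wild-type (squares) libraries, ordered by the wild-type mean. Itgb1 and Lamb3 stand at the top and Itgb4 and Lamb1 at the bottom, where 1 mutant library, mutant 1, lies far above the other 5.

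As shares of all α or all β laminin chains per exon length, Lama5 made up 79.2% ± 0.993 of the α chains in mutants and 82.5% ± 0.866 in wild types, and Lama3 20.1% ± 2.03 in mutants and 17.4% ± 0.903 in wild types. Each mutant library had a lower Lama5 share than each wild-type library, while the Lama3 shares overlapped, with mutant 1 at 17.8% and wild type 3 at 18.4%. Mutant 1 also had the largest shares of Lama4 (1.72%) and Lama2 (0.333%). Of Lama3 and Lama5 alone, the Lama5 share was 81.8%, 79.4% and 78.2% in mutants 1, 2 and 3, against 83.1%, 83.2% and 81.6% in wild types 1, 2 and 3, and the groups overlapped. With the short transcript's length the Lama3 share of the α chains would be 32.7% ± 2.80 in mutants and 28.9% ± 1.29 in wild types. Lamb1, the β chain of the α5β1γ1 laminin, made up 0.476% ± 0.470 of the β chains in mutants and 0.176% ± 0.0757 in wild types. Lamb2 made up 40.0% ± 3.59 in mutants and 37.8% ± 0.81 in wild types, and Lamb3 59.5% ± 3.94 in mutants and 62.0% ± 0.804 in wild types. Beside Lamb3, then, nearly all of the β chain transcript in either group was Lamb2. The chain genes Lama1, Lama2, Lama4 and Lamc3 reached no more than 8 counts outside mutant 1, where they had 3, 53, 169 and 18.

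The comparison of mutant with wild-type libraries asks whether these adhesion genes differed during repair with the labelled floxed Dlk1 genotype. Dlk1 counts were too few in both groups to check its deletion. None of the 9 passed the test. In edgeR's quasi-likelihood test with Benjamini-Hochberg adjustment, 0 of 9 members and 0 of 12899 genes (0.0%) passed an adjusted p of 5%. At an unadjusted p under 0.05 there was 1 of 9 members, Lama3, against 849 genes or 6.58% of all tested. DESeq2 called 38 genes (0.295%), 22 genes (0.17%) without mutant 1, and limma-voom 0 (0.0%), with no member among them. At an unadjusted p under 0.05, DESeq2 had 2 of 9 members, Lama3 and Lamc1, against 6.78% of all tested genes, and the same 2 without mutant 1 against 5.89%. In limma-voom there were 3 of 9, Lama3, Lamc1 and Itga3, against 1290 genes or 10.0%. Over the 9 genes, 8 log2 fold changes were positive and 1 was negative, with a median of 0.16, against 6587 positive and 6312 negative and a median of 0.005 over all tested genes. Without mutant 1 the members were 5 positive and 4 negative, with a median of 0.07.

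Lama3, the α chain that gives the laminin with α3 and β3 chains its integrin-binding end, was at 94.7, 94.4 and 116.9 normalised CPM in mutants 1, 2 and 3, against 72.1, 71.8 and 84.6 CPM in wild types 1, 2 and 3. Every mutant library was above every wild-type library. Among all tested genes, 5.23% had groups that did not overlap with the mutant higher, and Lama3 was the only member among these. Its log2 fold change was 0.42 ± 0.11 (SE), which is 1.34-fold with a 95% interval of 1.11 to 1.62, and its edgeR adjusted p was 0.737 (unadjusted 0.00762). Without mutant 1 the log2 fold change was 0.47 ± 0.12 (edgeR adjusted p = 0.819), without wild type 2 it was 0.38 (adjusted p = 0.959), and in DESeq2 with all libraries the adjusted p was 0.177. Lama3 exons share 1.83% of their bases with a gene on the opposite strand, Gm29200. Beside this, the 10 AT1 markers, genes of the flat alveolar type I cell, had 9 positive and 1 negative log2 fold change, and their sums overlapped between the groups, at 3415 to 3806 CPM in mutants and 3150 to 3558 CPM in wild types. For Cav1, the caveolin gene, and Akap5 among them, every mutant was above every wild type, as in 5.23% of all tested genes. Both were picked out after their values were seen. Their log2 fold changes were 1.18 and 0.77, and 0.87 and 0.69 without mutant 1. For every other AT1 marker the groups overlapped (edgeR adjusted p 0.767 to 0.967). In DESeq2 the adjusted p was 0.0398 for Cav1, which passed (0.226 without mutant 1), and 0.0589 for Akap5, and in edgeR it was 0.737 for both. None of the AT1 or AT2 markers was at 0 in any library, and the part of the AT1 and AT2 values given here in those of Lama3 was not tested.

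Lamb3, the partner of Lama3 in the same trimer, was at 341.4, 309.2 and 452.5 normalised CPM in mutants 1, 2 and 3, against 383.0, 387.5 and 409.8 CPM in wild types 1, 2 and 3. The mutant values lay on both sides of the wild-type range, with mutants 1 and 2 below it and mutant 3 above it. The log2 fold change was -0.10, with a 95% interval of -0.44 to 0.24 (edgeR adjusted p = 0.891).

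Of the α5β2γ1 chains, Lama5 was at 450.7, 385.3 and 444.1 normalised CPM in mutants 1, 2 and 3, against 376.0, 376.3 and 397.2 CPM in wild types 1, 2 and 3. Mutant 2 lay inside the wild-type range and the other mutants above it. The log2 fold change was 0.16 (95% interval -0.06 to 0.37, edgeR adjusted p = 0.747). Lamb2 was at 279.5, 246.1 and 278.5 CPM in the mutants, against 266.3, 251.8 and 272.7 CPM in the wild types, the smallest spread of the 9 genes, with the highest library 1.14 times the lowest. Its log2 fold change was 0.02 (-0.17 to 0.22, edgeR adjusted p = 0.958). Lamc1 was at 156.0, 196.7 and 163.1 CPM in the mutants, against 156.7, 140.0 and 142.3 CPM in the wild types. Mutant 1 lay just below wild type 1 and mutant 2 was the highest library. The log2 fold change of Lamc1 was 0.23 ± 0.11 (edgeR adjusted p = 0.737), and without mutant 1 it was 0.30 ± 0.11 (unadjusted p = 0.0257, edgeR adjusted p = 0.819).

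**Figure D2:**
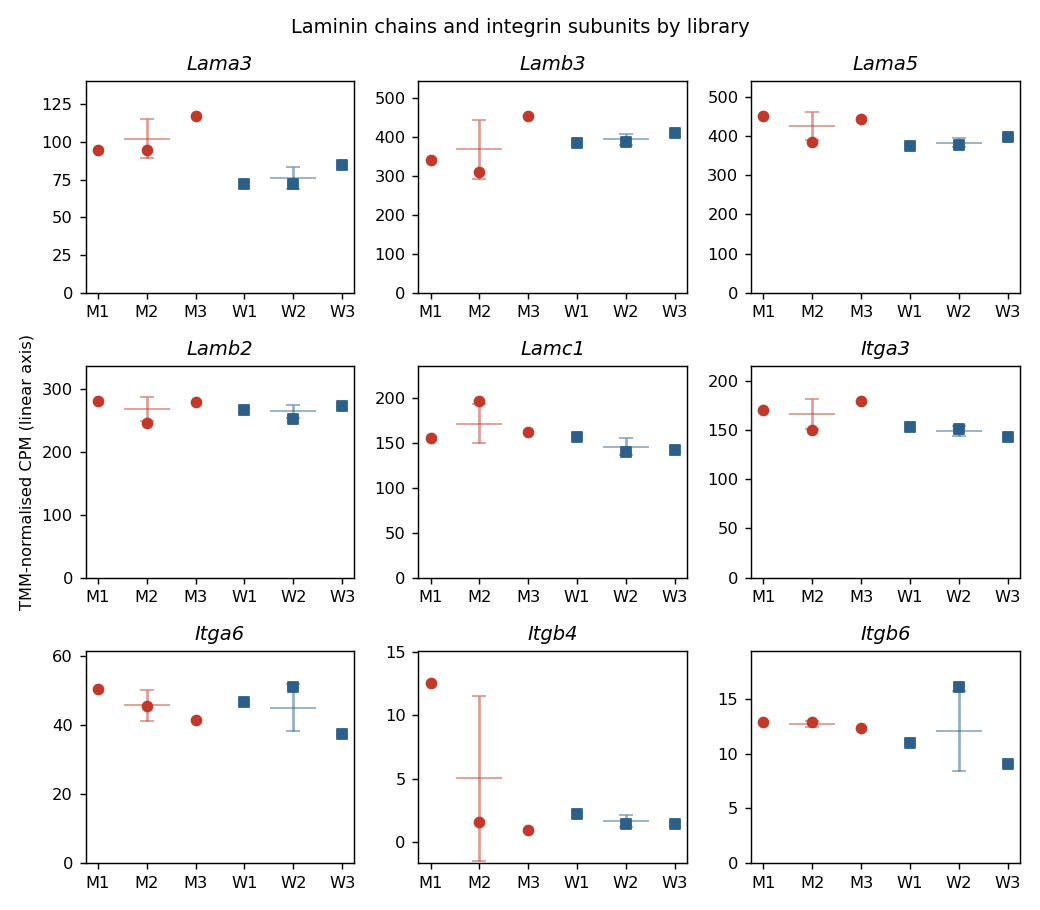
TMM-normalised CPM of each of the 9 genes in mutants 1 to 3 (M1 to M3, circles) and wild types 1 to 3 (W1 to W3, squares) on linear axes, with the mean as a bar and the SD as whiskers (n = 3 each). Lama3 is the gene whose mutant points all lie above its wild-type points, and Itgb4 is carried by mutant 1 at 12.5 CPM.

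Among the integrin genes, Itga3 encodes the α subunit of α3β1, the main laminin receptor of alveolar epithelium. It was at 170.2, 149.6 and 178.9 normalised CPM in mutants 1, 2 and 3, against 152.5, 151.1 and 143.0 CPM in wild types 1, 2 and 3. Mutant 2 lay within the wild-type range. The log2 fold change was 0.16 (95% interval -0.05 to 0.37, edgeR adjusted p = 0.739).

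Itga6, the α subunit shared by α6β1 and α6β4, was at 50.4, 45.5 and 41.5 CPM in the mutants, against 46.6, 51.2 and 37.6 CPM in the wild types. Its highest and lowest libraries were both wild types, and the log2 fold change was 0.02 (-0.30 to 0.34, edgeR adjusted p = 0.978). Itgb6 was at 12.9, 12.9 and 12.4 CPM in the mutants, against 11.01, 16.2 and 9.04 CPM in the wild types. The mutants lay close together inside the wild-type range, whose top was wild type 2, the library with high Xist. Its log2 fold change was 0.08 (-0.43 to 0.59, edgeR adjusted p = 0.946), and 0.34 without wild type 2 (adjusted p = 0.959). The β1 and αv partners of these subunits were also close between groups. Itgb1 had a mean of 548.6 ± 52.5 CPM in mutants and 551.2 ± 32.5 CPM in wild types, and Itgav 76.5 ± 6.31 CPM in mutants and 73.0 ± 6.81 CPM in wild types (n = 3 each, ± SD). The edgeR adjusted p was 0.990 for Itgb1 and 0.893 for Itgav.

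Itgb4, the β subunit of the hemidesmosome receptor, differed from the other members. It had 411, 37 and 28 counts in mutants 1, 2 and 3, against 49, 36 and 35 counts in wild types 1, 2 and 3, which is 12.5, 1.58 and 0.987 TMM-normalised CPM against 2.24, 1.44 and 1.43 CPM. Mutant 1 was 8.16 times the mean of the other 5 libraries and over 5 times each of them, as it was for 3.47% of all tested genes, and mutant 3 was the lowest of all. The log2 fold change was 1.57 ± 0.93 (edgeR adjusted p = 0.748) with all libraries, 0.71 ± 0.66 with the replicate number as a block (adjusted p = 0.820) and -0.41 ± 0.48 without mutant 1 (adjusted p = 0.899). The other 8 members were within 1.2-fold of the mean of the other 5 libraries in mutant 1. Lamb1 likewise was high in mutant 1, at 6.92 CPM, against 0.692 to 1.84 CPM in the remaining libraries.

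Markers of other cell types were high in mutant 1 together with Itgb4. Those of club cells came to 8873 CPM in mutant 1, against 486 to 794 CPM in the other libraries, with 6 of 6 positive log2 fold changes. Without mutant 1 the club cell log2 fold changes ran from -0.312 to 0.032. Endothelial markers came to 87.8 CPM in mutant 1, against 14.0 to 21.0 CPM in the others, with 5 of 5 tested positive and Cldn5 and Emcn at 0 in at least 1 library. Without mutant 1 the tested endothelial log2 fold changes ran from -0.085 to 1.458. Basal cell markers came to 4.89 CPM in mutant 1, against 0.316 to 1.69 CPM in the others, with 1 of 5 tested, Krt5, Trp63 and Ngfr at 0 in at least 1 library and Krt14 at 0 in all 6. The part of these cells in the Itgb4 value was not tested. Itgb4 exons share 7.66% of their bases with B230344G16Rik, a gene on the opposite strand, and reads of such pairs can be told apart only where counting used strand.

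**Figure D3:**
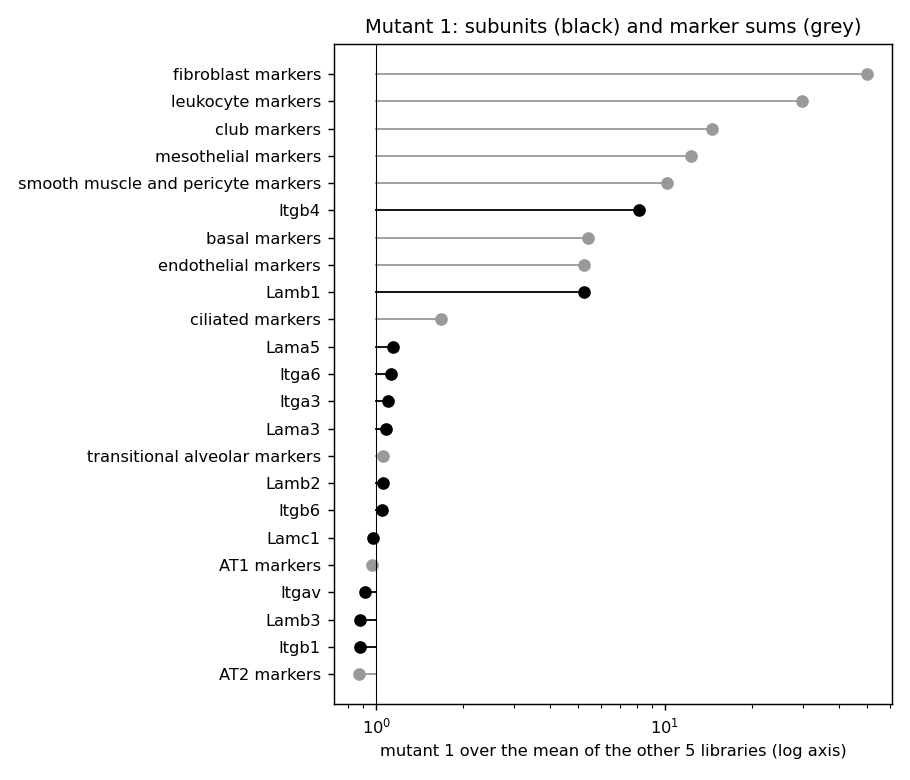
Level in mutant 1 divided by the mean of the other 5 libraries (log axis) for the 9 genes and 3 partner subunits (black, TMM-normalised CPM) and for the summed markers of 11 cell types (grey, CPM). Itgb4 at 8.16 and Lamb1 at 5.26 lie among the markers of cells other than alveolar epithelium, and the other subunits lie near 1 with the AT2 and AT1 markers.

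The tightness of the measurement differed between genes. For 6 of the 9 genes (Lamb3, Lama5, Lamb2, Lamc1, Itga3 and Itga6) the whole 95% interval lay within a 1.5-fold change in either direction. The interval of Lama3 reached 1.62-fold higher, that of Itgb6 reached 1.5-fold, and that of Itgb4 ran from 0.653-fold to 13.4-fold. Without mutant 1 the log2 fold change was -0.05 for Lamb3, 0.12 for Lama5, -0.006 for Lamb2, 0.14 for Itga3, -0.05 for Itga6 and 0.07 for Itgb6, none of them called (edgeR adjusted p 0.846 to 0.993). For Itgb4 the log2 interval was -0.61 to 3.75 with all libraries and -1.50 to 0.69 without mutant 1.

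**Figure D4:**
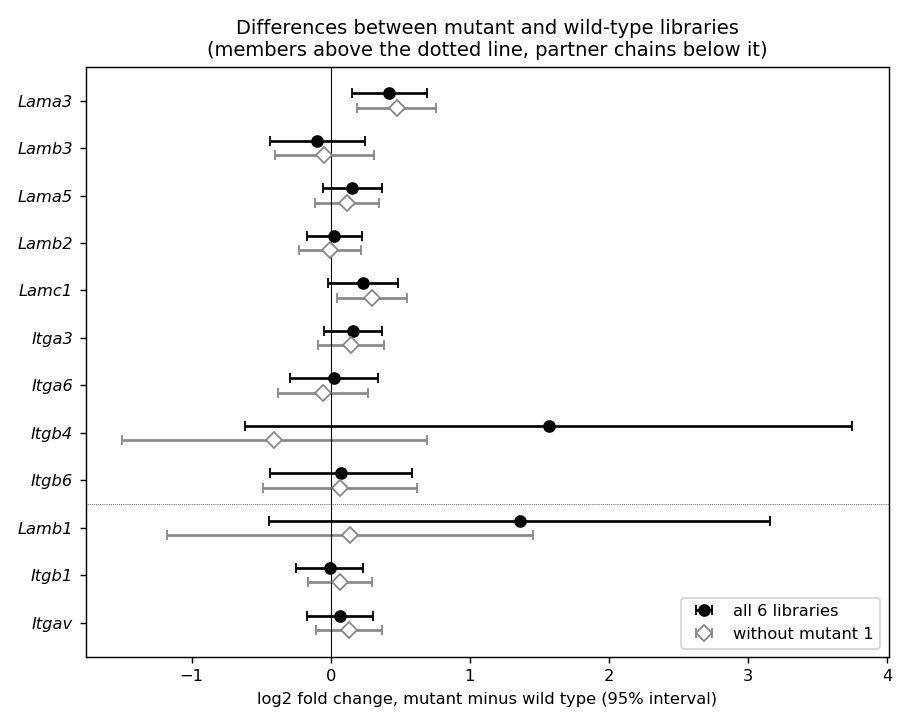
Log2 fold changes, mutant minus wild type, with 95% intervals from edgeR for the 9 genes (above the dotted line) and 3 partner chains (below it), with all 6 libraries (filled circles) and without mutant 1 (open diamonds). Lama3 is the gene of the 9 whose interval lies above 0 in both fits, at 0.42 and 0.47, the interval of Lamc1 does so without mutant 1, and Itgb4 moves from 1.57 with all libraries to -0.41 without mutant 1.

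Ratios of transcripts within a library do not depend on how libraries are scaled, so 5 pairs were compared with an exact two-sided permutation test over the 6 libraries, which cannot give a p below 0.1. The Lama3 to Lamb3 ratio compares the α and β chains of the same trimer. There were 0.277, 0.305 and 0.258 Lama3 counts per Lamb3 count in mutants 1, 2 and 3, against 0.188, 0.185 and 0.206 in wild types 1, 2 and 3. The lowest mutant was above the highest wild type, and the spread inside either group was smaller than the gap between their means. The log2 ratio had a mean of -1.84 ± 0.12 in mutants and -2.37 ± 0.08 in wild types (n = 3 each, ± SD), a difference of 0.53 with an exact p of 0.1, the smallest possible, and of 0.5 after adjustment over the 5 ratios. Without mutant 1 the difference was 0.54.

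The Lama3 to Lama5 ratio, which sets the α chains of the 2 trimers against each other, had log2 values of -2.25, -2.03 and -1.93 in mutants 1, 2 and 3, against -2.38, -2.39 and -2.23 in wild types 1, 2 and 3. Mutant 1 fell just below wild type 3, so the groups overlapped. The difference was 0.27 (exact permutation p = 0.2, adjusted 0.5). The log2 ratio of Lamb2 to Lamc1 differed by -0.20 between mutant and wild type (exact permutation p = 0.4), with mutant 2 alone low at 0.32 and the other 5 libraries between 0.77 and 0.94.

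For the integrins, the Itga6 to Itgb4 ratio sets the α6 transcript against that of its β4 partner. There were 4.02, 28.8 and 42.0 Itga6 counts per Itgb4 count in mutants 1, 2 and 3, against 20.8, 35.5 and 26.4 in wild types 1, 2 and 3. Mutant 1 stood apart, and its removal turned the log2 difference from -0.67 (exact permutation p = 0.9) to 0.37 (p = 0.4). The log2 ratio of Itga3 to Itga6 differed by 0.13 (exact permutation p = 0.5), with both groups overlapping. Per exon length, Itgb1 made up 98.0% ± 0.914 of the Itgb1, Itgb4 and Itgb6 level in mutants and 98.5% ± 0.419 in wild types.

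**Figure D5:**
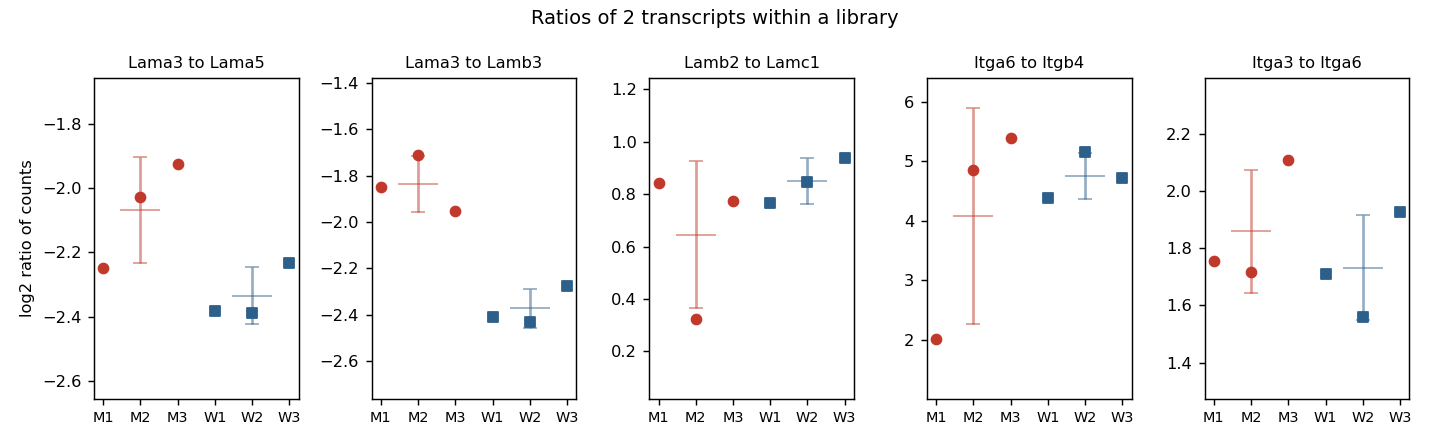
Log2 ratio of the counts of 2 genes in each library, for mutants 1 to 3 (M1 to M3, circles) and wild types 1 to 3 (W1 to W3, squares), with mean and SD (n = 3 each); each panel has its own axis. The Lama3 to Lamb3 ratio is the panel in which the groups do not overlap, at -1.95 to -1.71 in mutants and -2.43 to -2.28 in wild types.

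The surrounding genes of cell adhesion also had 0 calls in edgeR. Of 6 hemidesmosome and tetraspanin partners, 5 were tested, with 3 positive and 2 negative log2 fold changes and a median of 0.02. Plec, the linker from β4 to keratin, had a mean of 189.2 ± 47.8 TMM-normalised CPM in mutants and 152.4 ± 13.1 CPM in wild types, and its log2 fold change of 0.31 was 0.09 without mutant 1. Dst, a second linker, had -0.15 and Cd151, the tetraspanin bound to α3β1 and α6β4, had 0.08. Col17a1, the collagen of classical hemidesmosomes, had 19, 0 and 1 counts in the mutants, against 1, 0 and 0 in the wild types. Col17a1 thus stayed at or under 1 count outside mutant 1, and Plec, like Itgb4, was highest in mutant 1, at 244.4 CPM.

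Of the laminin receptors outside the integrins, Dag1, which encodes dystroglycan, had a mean of 623.3 ± 46.5 CPM in mutants and 614.6 ± 35.0 CPM in wild types, and Bcam, a receptor for the α5 chain, had a mean of 1146 ± 71.8 CPM in mutants and 1116 ± 75.5 CPM in wild types. Of the 5 listed receptors, 2 were positive and 3 negative, with a median log2 fold change of -0.08. Sdc4 (-0.23), Sdc1 (-0.11) and Rpsa (-0.08) were the negative ones. Sdc1, a syndecan, was at 917.2, 1014 and 989.6 CPM in the mutants, against 1045, 1056 and 1057 CPM in the wild types. For Sdc1 every mutant was lower, as in 6.43% of all tested genes (edgeR adjusted p = 0.792). The 12 tested adaptor and adhesion genes had 5 positive and 7 negative log2 fold changes and a median of -0.03. Those with the smallest p were Tln1, the integrin-activating talin (0.19), Zyx (0.46, and 0.08 without mutant 1) and Vcl (0.13).

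Other basement membrane genes had 9 positive and 4 negative log2 fold changes among 13 tested of 16, with a median of 0.16, and 0.20 without mutant 1. Tinagl1, a matricellular protein of basement membranes, was at 77.8, 84.9 and 85.4 normalised CPM in mutants 1, 2 and 3, against 120.1, 99.3 and 120.6 CPM in wild types 1, 2 and 3. Every mutant was lower, as in 6.43% of all tested genes, with a log2 fold change of -0.45 ± 0.10 (edgeR adjusted p = 0.737). In DESeq2 the adjusted p of Tinagl1 was 0.0403 over the 6 libraries, which passed, and 0.272 once mutant 1 was left out, where the edgeR log2 fold change was -0.41 ± 0.11.

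Ntn4, a netrin that binds the γ1 chain of laminin and can disrupt its network, was at 3.99, 4.92 and 4.30 CPM in the mutants, against 1.65, 2.36 and 1.87 CPM in the wild types. Every mutant was higher at this low level, with a log2 fold change of 1.17 ± 0.30 (edgeR adjusted p = 0.737, DESeq2 adjusted p = 0.116). Agrn, the proteoglycan agrin, had a log2 fold change of 0.33 ± 0.14 (edgeR adjusted p = 0.737). The nidogen genes Nid1 and Nid2, whose products link laminin to collagen IV, reached no more than 12 counts outside mutant 1, where they had 147 and 70. The main collagen IV chains are Col4a1 and Col4a2, and Col4a1 had 983.7, 978.4 and 1136 CPM in the mutants, against 927.8, 939.3 and 900.1 CPM in the wild types. Every mutant was above every wild type for Col4a1 (log2 fold change 0.16, edgeR adjusted p = 0.749) and for Col4a2 (0.11, 0.790). Among all tested genes, 5.23% had every mutant higher in this way. For Col4a3, Col4a4, Col4a5 and Col4a6 the groups overlapped. These lists were read as counts and medians, with no test of a list.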

How the data were processed

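RNA from sorted cells of 6 libraries was measured by RNA-seq; groups came from the sample titles. Each library had 1 deposited file of raw counts, whole numbers by gene symbol. Per the submitters' processing notes the build was mm9 and the tools were CASAVA and DESeq2, without versions. Not given in the sources used here were the aligner, counter, annotation and strand handling. The labels name NextSeq500 in the protocol and HiSeq4000 in the design.

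Counts were filtered with filterByExpr, scaled by TMM and tested with edgeR 4.0.16's quasi-likelihood F-test in R 4.3.3 (two-sided, mutant minus wild type, Benjamini-Hochberg over 12899 genes, threshold 5%). The standard error was the size of the log2 fold change over the root of F. A count of 3 corresponded to 0.0977 to 0.133 CPM, which covers counting error only. Exon lengths and overlaps came from GENCODE M21 on GRCm38, so no coordinates are printed. Alternatives were other size factors, other filters on low counts, robust dispersion, DESeq2 1.42.0, limma-voom (limma 3.58.1), the replicate number as a block and leaving out each library. Simulated counts with 200 changed genes were used to test the edgeR steps. Replicates of a group differed by chi-squares of 18.4 to 76.7 per degree of freedom, so none was a repeat of another. Deviations from the group means correlated at 0.312, 0.211 and 0.169 between mutants and wild types of equal number. All passed 0.1, so the numbers were read as pairs in the replicate block, though no label names a shared day or litter. The main edgeR fit and the exact permutation tests did not use the numbers.

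The members and lists were chosen with earlier results of these data known. The text names all members, Lamb1, Itgb1, Itgav, Cd151, Col17a1, Plec, Dst, Dag1, Bcam, Dlk1, the 3 genes nearest to the members' mean pattern, and up to 3 genes of each other list with the smallest p. Lama1, Lama2, Lama4, Lamc3, Nid1, Nid2, Col4a1, Col4a2, Col4a3, Col4a4, Col4a5, Col4a6, Tgfb1, Tgfb3, Gm29200, B230344G16Rik, Krt5, Krt14, Trp63, Ngfr, Cldn5, Emcn, Cav1, Akap5, Cd3e, Xist and Gpr133 were named after their values were seen.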

Additional observations from a re-analysis of the deposited data

How the results depend on the processing

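No member was called under any of the 16 alternatives. The number of genes called over all tested genes was 0 in most of them, 38 in DESeq2, 22 in DESeq2 without mutant 1 (added after seeing the data), and 0 to 1 when each library was left out in turn, the 1 gene being Gpr133 without wild type 3. Leaving out each library in turn moved the log2 difference of Lama3 to Lamb3 between 0.47 and 0.59 and that of Itga6 to Itgb4 between -1.32 and 0.37. With the replicate block (same numbers taken as pairs) no call changed; the Lama3 log2 fold change was 0.42 (edgeR adjusted p = 0.563) and the Lama3 to Lamb3 difference was 0.53 (exact sign-flip p = 0.25, the smallest that 3 pairs allow). Lama3, Lama5, Lamc1 and Itga3 kept a positive log2 fold change under every alternative, Lama3 between 0.31 and 0.54. The sign turned in limma-voom for Itga6 (-0.11), Itgb6 (-0.069) and Lamb3 (0.032), in DESeq2 without mutant 1 for Itga6 (-0.048), Itgb4 (-0.40) and Lamb2 (-0.001), and without mutant 1 and wild type 2 together (also added after seeing the data) for Itgb4 (-0.50) and Lamb2 (-0.031). Leaving out single libraries gave ranges of -0.10 to 0.12 for Itga6, -0.41 to 2.05 for Itgb4, -0.10 to 0.34 for Itgb6, -0.011 to 0.078 for Lamb2 and -0.275 to 0.009 for Lamb3. Itgb4 rested on 28 to 49 counts outside mutant 1, with a standard error of 0.93 with all libraries and 0.48 without mutant 1.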

Other observations

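Integrin subunits outside the 9 genes gave 2 further patterns of level. Itga7, which forms a laminin receptor with β1 and is best known from muscle, stood at 38.9 ± 6.16 TMM-normalised CPM per kilobase of exon in mutants and 34.8 ± 4.47 in wild types (n = 3 each, ± SD), against 31.6 ± 2.86 in mutants and 28.3 ± 0.979 in wild types for Itga3 on that scale. Of the 3 laminin-binding α subunits Itga3, Itga6 and Itga7, it made up 47.8% ± 4.97 of the level per exon length in mutants and 47.2% ± 1.68 in wild types. This place depends on the exon length used. Coding transcripts of Itga7 cover 4145 bases and all its annotated exons 8092, against 5254 and 5710 for Itga3. Before division by length, Itga7 was at 161.2 CPM in mutants and 144.2 CPM in wild types, and Itga3 at 166.3 CPM in mutants and 148.8 CPM in wild types. Itga9, whose product binds tenascin-C and other matrix proteins, had a mean of 447.4 ± 81.0 CPM in mutants and 509.4 ± 120.1 CPM in wild types. Neither gene was called (edgeR adjusted p = 0.811 and 0.841). Itga5, the fibronectin receptor subunit, was at 27.4, 17.7 and 24.9 CPM in mutants 1, 2 and 3, against 17.0, 17.3 and 15.9 CPM in wild types 1, 2 and 3. Every mutant was above every wild type, as in 5.23% of all tested genes, though by little in mutant 2. The log2 fold change of Itga5 was 0.48 ± 0.16 (edgeR adjusted p = 0.737), and 0.35 without mutant 1. Itga10 and Itga11, of mesenchymal cells, had at most 98 counts in any library and log2 fold changes of -0.003 and -0.11.

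Integrins of blood cells were highest in mutant 1. All 10 tested had positive log2 fold changes, with a median of 2.79, and 0.50 without mutant 1. Itga4 had 1506, 47 and 109 counts in mutants 1, 2 and 3, against 16, 9 and 23 counts in wild types 1, 2 and 3, Itgb7 had 1057, 24 and 59 against 13, 5 and 8, and Itgam had 865, 9 and 43 against 15, 4 and 9. For Itga4 and Itgb7 every mutant was above every wild type, as in 5.23% of all tested genes. Without mutant 1 the log2 fold change was 2.11 ± 0.54 for Itga4, 2.06 ± 0.66 for Itgb7 and 1.25 ± 0.83 for Itgam (edgeR adjusted p 0.819 to 0.839). Leukocyte markers came to 464.8 CPM in mutant 1, against 5.96 to 25.2 CPM in the others, with 6 of 6 tested positive and Cd3e at 0 in at least 1 library. In mutants 2 and 3 they came to 12.0 and 25.2 CPM, against 5.96 to 24.4 CPM in wild types. The tested leukocyte markers had log2 fold changes of 0.139 to 0.935 without mutant 1. The part of leukocytes in the integrin values was not tested.

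Ligands of αvβ6 had 4 positive and 1 negative log2 fold change among 5 tested, with a median of 2.01, and 0.28 without mutant 1. Tnc, which encodes tenascin-C, was at 3.38, 3.12 and 1.73 CPM in mutants 1, 2 and 3, against 0.823, 0.801 and 0.407 CPM in wild types 1, 2 and 3. Fn1, the fibronectin gene, was at 208.7, 9.67 and 13.9 CPM in the mutants, against 5.03, 3.45 and 3.38 CPM in the wild types. In both genes every mutant was above every wild type, as in 5.23% of all tested genes. Fn1 was highest in mutant 1, where fibroblast markers came to 213.9 CPM against 3.37 to 6.82 CPM elsewhere. In mutants 2 and 3 they came to 3.37 and 4.02 CPM, against 3.43 to 6.82 CPM in wild types. The tested fibroblast log2 fold changes ran from -0.723 to 0.422 without mutant 1. The part of these cells in the Fn1 value was not tested. The Fn1 log2 fold change was 4.30 ± 1.24 with all libraries and 1.58 ± 0.26 without mutant 1 (edgeR adjusted p = 0.737 and 0.705), and that of Tnc was 2.01 ± 0.47 with all libraries and 1.83 ± 0.53 without mutant 1 (edgeR adjusted p = 0.737 and 0.819). For Fn1, DESeq2 without mutant 1, an alternative chosen after seeing the data, gave an adjusted p of 0.000518. With all libraries DESeq2 gave no p for Fn1. Ltbp1, which stores latent TGF-β in matrix, had a log2 fold change of 2.09, and 0.28 without mutant 1. For the TGF-β genes Tgfb1 and Tgfb3 the groups overlapped. Their log2 fold changes were 0.33 and -0.26, and 0.11 and -0.18 without mutant 1. Laminin-cleaving proteases had 3 positive and 1 negative among 4 tested, with Bmp1 at 0.19, Plau at 0.69 and Mmp14 at 0.12, and none was called. Without mutant 1 they were 2 positive and 2 negative, with a median of 0.010, and Plau was at -0.34.

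The mean pattern of the 9 genes over the 6 libraries was most like that of Wdr19, 4632415K11Rik and Grn, with root mean square differences of 0.034, 0.037 and 0.045 on the log2 scale. That mean is high in mutant 1 (0.34, against -0.16 to -0.004 in the other 5 libraries), where Itgb4 alone was 2.49 above its own mean. The 9 genes themselves lay further from that mean than the 3 named genes, from 0.11 for Lama5 to 1.02 for Itgb4. The likeness is thus to the mean and not to the pattern of any of the 9 genes.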
